A study of Mus musculus with 36 samples.

Results

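Rods and cones turn light into a nerve signal with a dedicated set of proteins, and 34 genes of that set are described here out of 22558 genes listed. They were chosen by name for their role in phototransduction, outer segments or photoreceptor identity, and not by their values. Of these, 12 were assigned to rods, 7 to cones and 15 to both, an assignment that these data do not test. The samples are total RNA of C57BL/6 mice given PBS (the control), DMOG or roxadustat, with 6 libraries per treatment and tissue label, 36 in all. DMOG and roxadustat inhibit the prolyl hydroxylases that mark hypoxia-inducible factor (HIF) for destruction, and the title of the series places them in the prevention of retinopathy of prematurity. All groups share the strain, and the labels name no further allele, age, dose, time or pooling. They do not say that the libraries of a group are separate animals, so each p-value is set against the variation among these libraries, which may be technical.

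The 18 libraries labelled liver held a retina transcriptome and are the ones described first. Every member but Cngb1 had a mean above 4 FPKM there (fragments mapped per kilobase of transcript, scaled to library size, the authors' unit), and the rod arrestin gene Sag had the highest median over the libraries, 2588 FPKM. Of 8 liver marker genes, 2 had a mean of at least 0.5 FPKM, and Serpina1a and Fgb were listed at 0 in all 18. In the 18 libraries labelled retina, which held a liver transcriptome, the photoreceptor factor gene Crx was listed at 0 throughout.

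In the dark, cyclic GMP holds a cation channel of the outer segment open. Light activates an opsin, which activates transducin, which releases phosphodiesterase to break down cyclic GMP, and the channel closes. Kinase, arrestin and a GTPase-activating complex end the response, while calcium-sensing proteins and guanylate cyclases restore cyclic GMP. Rods and cones use separate genes for many of these steps. CRX drives most photoreceptor genes, NRL and its target NR2E3 set the rod fate, and many rod genes gain expression as the retina matures.

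These stretches of promoter are shown because their genes carry the rod and cone comparison below and hold letters that the identity factors are known to bind. Each is the 250 bases before the start in the RefSeq table of build GRCm38.p6, on the plus strand, 5′ to 3′. Capitals mark TAATCC, the core letters bound by CRX (printed as its reverse complement GGATTA where that strand matched), and TGCTGA, a half-site of NRL. Sag lies at chr1:87803430-87803679, Gngt1 (rod transducin gamma) at chr6:3993758-3994007, Pde6b (rod phosphodiesterase beta) at chr5:108388123-108388372 and Gnat2 (cone transducin alpha) at chr3:108092816-108093065.
Sag: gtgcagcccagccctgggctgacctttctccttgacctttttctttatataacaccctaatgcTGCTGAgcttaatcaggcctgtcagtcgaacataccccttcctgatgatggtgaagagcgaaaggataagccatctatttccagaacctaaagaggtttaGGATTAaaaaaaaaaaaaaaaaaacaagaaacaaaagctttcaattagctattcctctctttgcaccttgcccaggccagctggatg
Gngt1: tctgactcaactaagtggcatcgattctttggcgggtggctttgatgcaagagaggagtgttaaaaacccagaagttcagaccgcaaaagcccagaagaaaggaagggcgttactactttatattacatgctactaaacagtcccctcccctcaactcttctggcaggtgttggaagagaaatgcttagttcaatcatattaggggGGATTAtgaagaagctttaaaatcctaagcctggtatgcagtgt
Pde6b: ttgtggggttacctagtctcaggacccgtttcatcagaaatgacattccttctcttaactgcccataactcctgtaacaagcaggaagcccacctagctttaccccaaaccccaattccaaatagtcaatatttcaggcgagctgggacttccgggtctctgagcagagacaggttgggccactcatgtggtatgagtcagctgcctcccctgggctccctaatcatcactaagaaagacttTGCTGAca
Gnat2: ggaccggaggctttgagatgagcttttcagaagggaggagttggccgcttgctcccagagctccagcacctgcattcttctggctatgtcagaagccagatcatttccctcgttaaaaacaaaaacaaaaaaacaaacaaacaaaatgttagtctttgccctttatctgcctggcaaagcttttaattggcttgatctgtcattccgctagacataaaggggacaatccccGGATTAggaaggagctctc
The CRX letters begin 87 bases before the start in Sag, 44 in Gngt1 and 19 in Gnat2, and the NRL half-site 187 bases before it in Sag and 8 in Pde6b. The 2 motifs do not overlap in these stretches.

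The table held 28 windows for 25 of the 34 genes. Either strand of TAATCC was present in 12 of the 28 windows (42.9%), against 6.25% of all 32851 windows of the same length. The 12 genes were Abca4, Aipl1, Cnga1, Cngb1, Crx, Gnat2, Gngt1, Guca1a, Gucy2e, Gucy2f, Sag and Unc119, so rod, cone and shared genes were all among them. TGCTGA was present in 6 windows (21.4%), against 16.1% of all windows. The core letters of the HIF site, ACGTG, were present in 1 window, that of Gnb1 (3.57%), against 16.6% of all. A match is a run of letters and was not tested as a binding site.

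Before any comparison, 2 libraries stood apart. PBS replicate 1 was the lowest of all 18 libraries labelled liver for 21 of the 34 genes, and DMOG replicate 1 was the highest for 26. The genes summed to 14052 FPKM in PBS replicate 1 and to 16213 to 19937 FPKM in the other 5 PBS libraries. They summed to 23452 FPKM in DMOG replicate 1, to 15634 to 17954 FPKM in the other 5 DMOG libraries and to 15810 to 19067 FPKM with roxadustat. The groups as a whole overlapped, with means of 17732 ± 2260, 17923 ± 2846 and 17638 ± 1309 FPKM (SD, n = 6) for PBS, DMOG and roxadustat. In bulk tissue, fewer photoreceptors and less of these RNAs per photoreceptor cannot be told apart.

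Some marker sets of other cells stood apart in 1 or both of these libraries, and others did not. All 8 ganglion cell markers were detected, and they summed to 1022 FPKM in PBS replicate 1 against 437 to 606 FPKM in the other PBS libraries, 403 to 528 FPKM with DMOG and 327 to 545 FPKM with roxadustat. The 12 amacrine and horizontal cell markers summed to 762 FPKM in PBS replicate 1 and to 442 to 600 FPKM in the other 5. They were also highest of the DMOG libraries in DMOG replicate 1, at 533 FPKM. In DMOG replicate 1 the 12 bipolar cell markers summed to 769 FPKM, against 636 to 683 FPKM in the other 5 DMOG libraries. In PBS replicate 1 they summed to 575 FPKM, within the 571 to 712 FPKM of the other PBS libraries. Ganglion cell markers in DMOG replicate 1, at 509 FPKM, lay within the range of the other DMOG libraries. Lens crystallin genes took 0.956% to 10.1% of the FPKM of PBS libraries, 0.0154% to 0.373% with DMOG and 0.11% to 4.84% with roxadustat, and all 8 lens markers tested fell with DMOG, where 0.697% of all genes did. The crystallin share was not extreme within its group in either library, at 7.04% in PBS replicate 1 and 0.143% in DMOG replicate 1. The part of these cells in the photoreceptor levels was not tested, and results that rest on the 2 libraries are given with and without them.

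**Figure D1:**
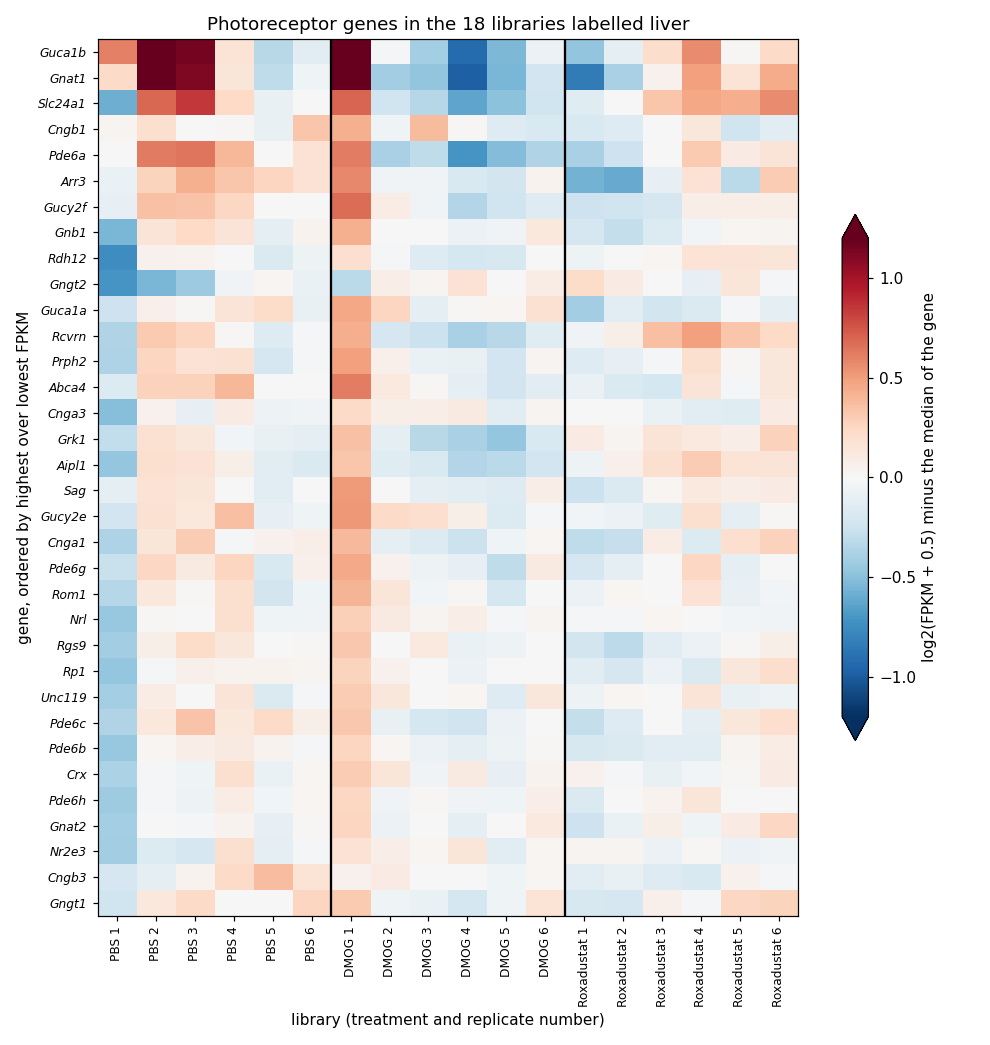
Each cell is a gene's log2(FPKM + 0.5) in 1 of the 18 libraries labelled liver, minus that gene's median over the 18, with genes ordered by highest over lowest FPKM and lines between the treatments. PBS 1 is low for most genes and DMOG 1 is high for most, while Guca1b and Gnat1 at the top vary far more than the rest.

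None of the 33 genes tested was called between any 2 treatments (limma on log2(FPKM + 0.5), Benjamini-Hochberg adjusted p under 0.05 over 13779 genes). Over all genes, 1.07% were called for DMOG against PBS, 2.34% for roxadustat against PBS and 1.31% for roxadustat against DMOG. The smallest adjusted p among the photoreceptor genes was 0.145, 0.0990 and 0.130 in that order. At an unadjusted p under 0.05, 3 genes passed for DMOG against PBS (Gngt2 and Nr2e3 higher, Pde6a lower), which is 9.09% against 13.7% of all genes. For roxadustat against PBS 4 passed (Gngt2 higher, Arr3, Cngb3 and Guca1a lower), or 12.1% against 17.5%. For roxadustat against DMOG 5 passed (Aipl1, Grk1, Rcvrn and Slc24a1 higher, Guca1a lower), or 15.2% against 10.9%. These counts rest on PBS 1 and DMOG 1. Without both, 13 of the 33 passed for DMOG against PBS (12 lower), beside 1946 of all 13779 genes. For roxadustat against PBS 11 passed (10 lower), beside 2513 of all genes. For roxadustat against DMOG 7 passed (6 higher), beside 1734. In every comparison the share of the 33 that passed was then above the share of all genes. The 2 libraries were left out after their values were seen.

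With all libraries kept, the differences were also small in size. The median log2 difference over the 33 genes was 0.03 for DMOG against PBS, -0.03 for roxadustat against PBS and -0.05 for roxadustat against DMOG. The medians over all genes tested were 0.01, -0.00 and -0.01. Without PBS 1 and DMOG 1 the medians over the 33 genes were -0.101, -0.072 and 0.022, so the first and last changed sign. Those over all genes were then 0.006, -0.008 and -0.015. With all libraries kept, the 95% interval of the difference lay within 1.5-fold either way for 29, 28 and 28 of the 33 genes. It reached past 2-fold for Gnat1 and Guca1b in both comparisons with PBS and for no gene in roxadustat against DMOG. No gene's groups of 6 failed to overlap, which 1.16%, 1.94% and 1.95% of all genes did. The comparisons share libraries, so their values are given side by side only.

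HIF target genes did change in the same libraries. Of 20 HIF target genes tested, 3 rose with DMOG, 14 rose with roxadustat and 10 were higher with roxadustat than with DMOG. Over all genes 0.37%, 1.69% and 0.98% were called higher in these comparisons. Pdk1, which encodes the kinase that shuts pyruvate out of mitochondria, had 10.4 ± 2.29 FPKM with PBS, 14.3 ± 2.04 with DMOG and 29.9 ± 5.81 with roxadustat (SD, n = 6). Its log2 difference for roxadustat against PBS was 1.48 ± 0.15 (SE, limma adjusted p = 4.48e-06). For DMOG against PBS Pdk1 was not called, at 0.46 ± 0.15 (limma adjusted p = 0.162). Vegfa was called for roxadustat against PBS (limma adjusted p = 0.0181) but not for DMOG against PBS (limma adjusted p = 0.457). Egln3 was called in no comparison (limma adjusted p = 0.591 for DMOG and 0.177 for roxadustat against PBS).

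**Figure D2:**
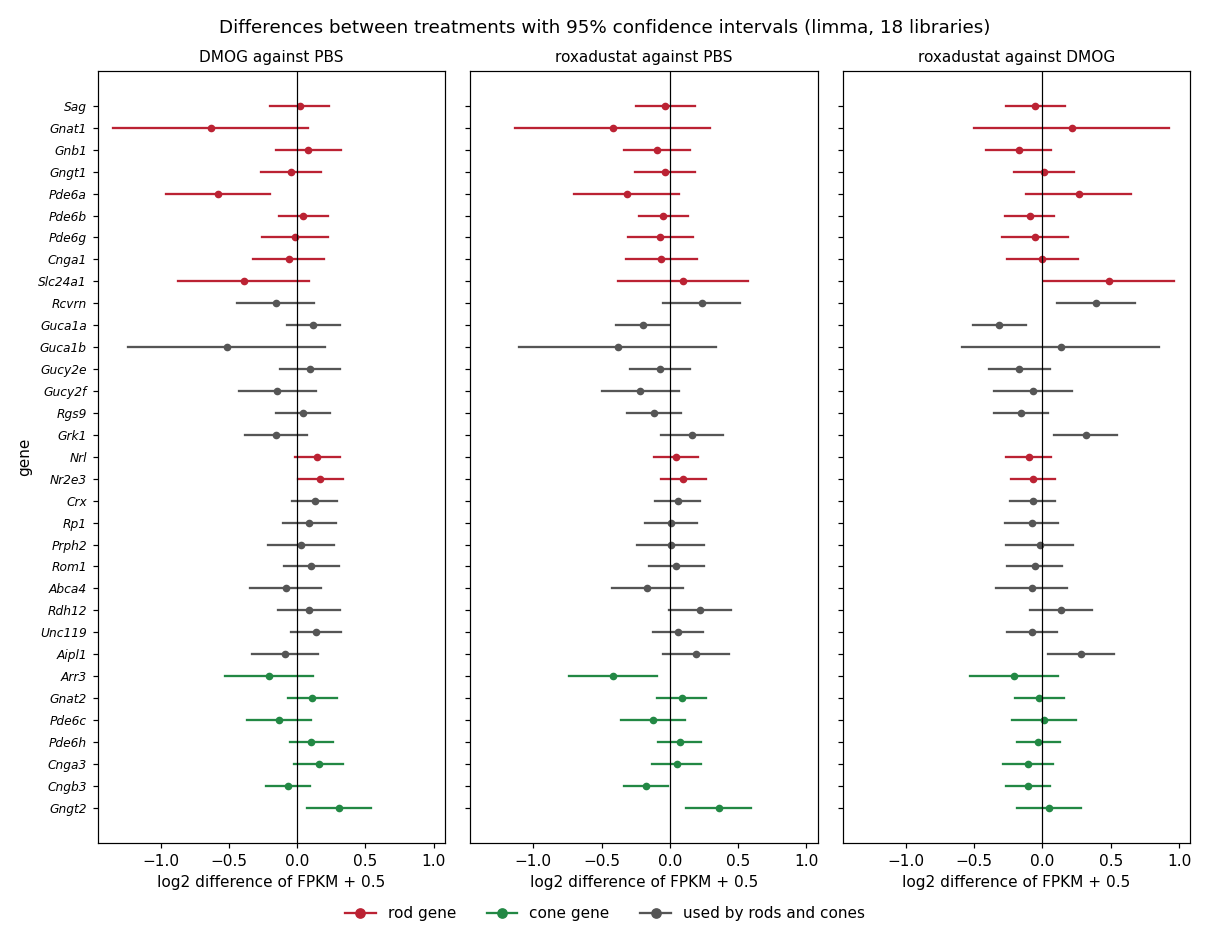
Points are log2 differences of FPKM + 0.5 for the 33 genes tested in the libraries labelled liver, and bars are 95% confidence intervals from limma. Colours give the photoreceptor type to which the gene was assigned. In the 3 comparisons 30, 29 and 28 of the 33 intervals hold 0, and the widest belong to Gnat1 and Guca1b.

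Transducin carries the signal from the opsin to phosphodiesterase, and its rod alpha subunit gene Gnat1 varied most among the transducin genes. Gnat1 had a lowest, median and highest level of 442, 623 and 1333 FPKM with PBS, 276, 401 and 1333 FPKM with DMOG and 305, 588 and 769 FPKM with roxadustat. The high libraries were PBS 2 (1333 FPKM), PBS 3 (1190 FPKM) and DMOG 1 (1333 FPKM), while the other 5 DMOG libraries lay at 276 to 466 FPKM. The groups overlapped widely, with a log2 difference of -0.63 ± 0.34 (SE) for DMOG against PBS (95% interval -1.35 to 0.08, limma adjusted p = 0.421). Without DMOG 1 the difference was -0.94 ± 0.28 and still not called (limma adjusted p = 0.109).

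Gnb1, the beta subunit, which many cell types also use, ran from 884 FPKM in PBS 1 to 1728 FPKM in DMOG 1, with group means of 1300 ± 232, 1364 ± 189 and 1204 ± 109 FPKM (SD, n = 6). Gngt1, the rod gamma subunit, was the steadiest member by highest over lowest library, at 1.47-fold, with group means of 1409 ± 174, 1365 ± 187 and 1378 ± 195 FPKM. The cone alpha subunit gene Gnat2 had group means of 44.1 ± 4.76, 47.5 ± 4.70 and 46.8 ± 5.52 FPKM. The means of these 3 genes differed between treatments by less than the PBS SD.

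Gngt2, the cone gamma subunit, had another pattern. It had 123, 170 and 205 FPKM (lowest, median, highest) with PBS, 162, 210 and 228 FPKM with DMOG and 188, 209 and 235 FPKM with roxadustat. The low libraries were PBS 1 to 3 (123, 138 and 149 FPKM) and DMOG 1 (162 FPKM), and all others lay between 188 and 235 FPKM. Its log2 difference was 0.31 ± 0.11 for DMOG (limma adjusted p = 0.220) and 0.36 ± 0.11 for roxadustat against PBS (limma adjusted p = 0.0990). Every roxadustat library was above the PBS mean of 167 FPKM. Without PBS 5 the roxadustat difference was 0.42 ± 0.11 and was called (limma adjusted p = 0.046), where 1.9% of all genes were called higher. Without the 4 libraries in which crystallin genes took over 4% (PBS 1, 2 and 6 and roxadustat 1) it was 0.18 ± 0.11 (limma adjusted p = 0.484).

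Phosphodiesterase 6 breaks down cyclic GMP, and in rods it is built of the catalytic subunits encoded by Pde6a and Pde6b with the inhibitory subunit encoded by Pde6g. Pde6a had 124, 152 and 195 FPKM (lowest, median, highest) with PBS, 76.4, 96.2 and 191 FPKM with DMOG and 95.2, 129 and 155 FPKM with roxadustat. In 5 DMOG libraries it lay at 76.4 to 101 FPKM, below every PBS library, and DMOG 1 with 191 FPKM was the exception. Its log2 difference for DMOG against PBS was -0.58 ± 0.18 (limma adjusted p = 0.145). Without DMOG 1 it was -0.76 ± 0.14 and called lower (limma adjusted p = 0.00863), where 0.806% of all genes were called lower, and without PBS 1 as well it was -0.82 ± 0.14 (limma adjusted p = 0.0078), where 0.53% were. Pde6a was the only one of the 33 genes whose PBS and DMOG libraries did not overlap once DMOG 1 was left out, against 2.50% of all genes.

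Pde6b, the partner of Pde6a in the same enzyme, showed no such pattern, with group means of 626 ± 80.7, 643 ± 62.2 and 602 ± 48.9 FPKM (SD, n = 6). Pde6g ran from 1047 to 1768 FPKM, with group means of 1338 ± 196, 1330 ± 245 and 1270 ± 144 FPKM. The cone catalytic subunit gene Pde6c had 38.7 ± 6.00, 35.1 ± 5.34 and 35.3 ± 4.60 FPKM. The cone inhibitory subunit gene Pde6h had 223 ± 25.9, 239 ± 20.0 and 234 ± 16.2 FPKM. The subunits of this complex thus had unlike spreads, with 2.55-fold between lowest and highest library for Pde6a and 1.63-fold for Pde6b.

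The cyclic GMP-gated channel of rods is encoded by Cnga1 and Cngb1, and that of cones by Cnga3 and Cngb3. Cnga1 ran from 195 to 331 FPKM, with group means of 261 ± 38.8, 251 ± 42.0 and 251 ± 43.9 FPKM (SD, n = 6). Cngb1 lay at 0.30 to 0.76 FPKM in every library, a mean of 0.46 FPKM that kept it out of the tests. Which Cngb1 transcripts the authors' annotation counted is not given in the sources used here.

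Cnga3 had 4.67 ± 0.72, 5.23 ± 0.47 and 4.81 ± 0.35 FPKM and Cngb3 had 8.04 ± 1.27, 7.59 ± 0.29 and 7.02 ± 0.46 FPKM with PBS, DMOG and roxadustat. Cngb3 was highest in PBS 4 and 5 (8.88 and 9.84 FPKM) and reached 7.76 FPKM at most with roxadustat, a log2 difference of -0.17 ± 0.08 for roxadustat against PBS (limma adjusted p = 0.253).

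Slc24a1 encodes the rod exchanger that pumps calcium out of the outer segment. It had 37.4, 61.5 and 102 FPKM (lowest, median, highest) with PBS, 36.1, 45.9 and 91.5 FPKM with DMOG and 51.0, 74.0 and 83.9 FPKM with roxadustat. The 5 DMOG libraries other than DMOG 1 lay at 36.1 to 47.7 FPKM, below all 6 roxadustat libraries. Its log2 difference for roxadustat against DMOG was 0.49 ± 0.23 (limma adjusted p = 0.443). It was 0.67 ± 0.20 without DMOG 1 (limma adjusted p = 0.155) and 0.67 ± 0.16 without PBS 1 as well, when it was called (limma adjusted p = 0.0431) and 1.44% of all genes were called higher.

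**Figure D3:**
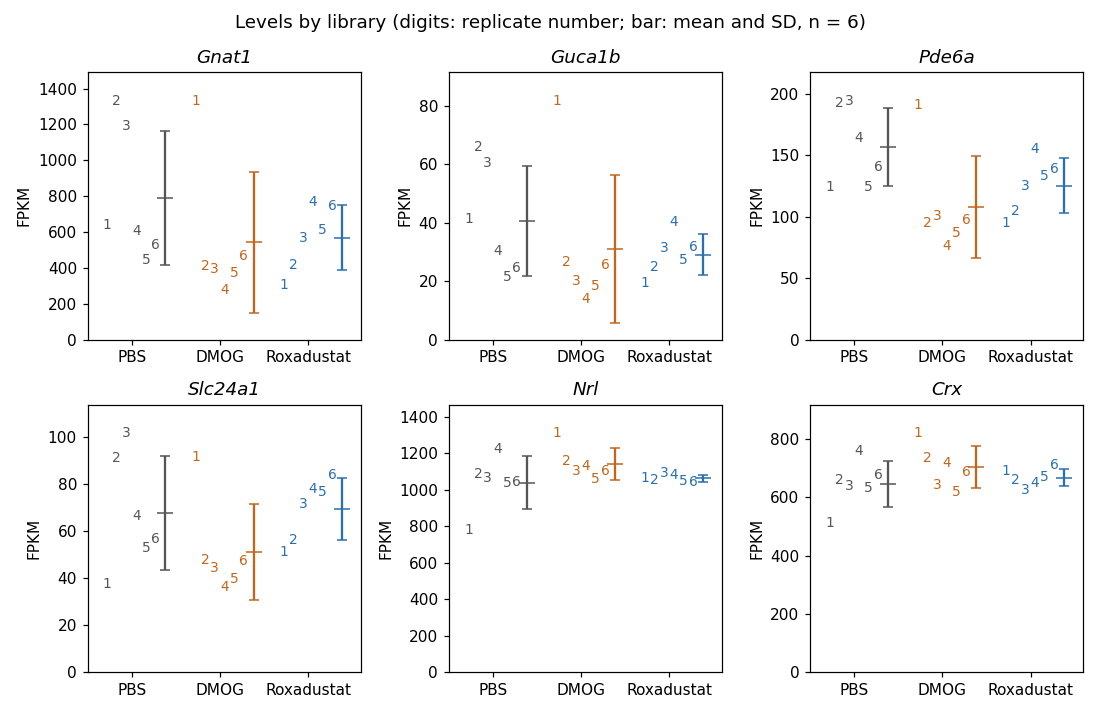
FPKM of 6 genes in the libraries labelled liver, each digit a library by its replicate number, with the mean and SD of the 6 libraries beside them. PBS 2, PBS 3 and DMOG 1 stand high for Gnat1 and Guca1b, 5 DMOG libraries lie at 76.4 to 101 FPKM for Pde6a, and the roxadustat libraries of Nrl lie within 1045 to 1093 FPKM.

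Calcium feedback sets sensitivity through recoverin (Rcvrn), which restrains the opsin kinase, and through the guanylate cyclase activating proteins (Guca1a, Guca1b), which switch on the cyclases encoded by Gucy2e and Gucy2f. Guca1b had the widest spread of the 34 genes, 5.83-fold, from 14.0 FPKM in DMOG 4 to 81.8 FPKM in DMOG 1. Its lowest, median and highest levels were 21.3, 35.7 and 65.8 FPKM with PBS, 14.0, 22.9 and 81.8 FPKM with DMOG and 19.2, 29.4 and 40.1 FPKM with roxadustat. The high libraries, PBS 2 (65.8 FPKM), PBS 3 (60.6 FPKM) and DMOG 1, were those that were high for Gnat1. The log2 difference was -0.52 ± 0.34 for DMOG against PBS (limma adjusted p = 0.509) and -0.38 ± 0.34 for roxadustat against PBS (limma adjusted p = 0.615). Without DMOG 1 the first was -0.84 ± 0.27 (limma adjusted p = 0.131).

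Guca1a, the other activator gene, spread over 1.85-fold. Its lowest, median and highest levels were 49.9, 60.9 and 69.2 FPKM with PBS, 54.5, 63.7 and 81.9 FPKM with DMOG and 44.2, 53.2 and 58.6 FPKM with roxadustat. The log2 difference for roxadustat against DMOG was -0.32 ± 0.09 (limma adjusted p = 0.130), the smallest adjusted p of the 33 genes in that comparison. Against PBS it was -0.20 ± 0.09 (limma adjusted p = 0.273).

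Rcvrn had 802, 1029 and 1280 FPKM (lowest, median, highest) with PBS, 787, 880 and 1395 FPKM with DMOG and 1003, 1259 and 1447 FPKM with roxadustat. The 5 DMOG libraries other than DMOG 1 lay at 787 to 932 FPKM, below every roxadustat library. Its log2 difference for roxadustat against DMOG was 0.39 ± 0.13 (limma adjusted p = 0.234), and 0.51 ± 0.11 without DMOG 1 (limma adjusted p = 0.0242), when it was called and 1.11% of all genes were called higher. The cyclase genes overlapped between treatments, with group means of 28.3 ± 4.37, 30.3 ± 5.17 and 26.7 ± 2.40 FPKM for Gucy2e and 18.7 ± 2.59, 17.3 ± 5.06 and 16.0 ± 1.96 FPKM for Gucy2f.

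Shutoff of the response starts with the opsin kinase (Grk1), is completed by arrestin, and is sped for transducin by RGS9. Grk1 had 104, 123 and 146 FPKM (lowest, median, highest) with PBS, 92.5, 107 and 164 FPKM with DMOG and 131, 138 and 156 FPKM with roxadustat. The highest of the 5 DMOG libraries other than DMOG 1 had 119 FPKM, below the roxadustat minimum. The log2 difference for roxadustat against DMOG was 0.32 ± 0.11 (limma adjusted p = 0.234), and 0.42 ± 0.08 without DMOG 1, when it was called (limma adjusted p = 0.00797) as Rcvrn was.

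Sag, the rod arrestin gene, overlapped between treatments, with 2619 ± 231, 2681 ± 514 and 2564 ± 270 FPKM (SD, n = 6). Arr3, the cone arrestin gene, had 28.5, 36.4 and 40.7 FPKM (lowest, median, highest) with PBS, 25.9, 29.3 and 45.2 FPKM with DMOG and 19.7, 26.1 and 37.4 FPKM with roxadustat. Roxadustat 1, 2 and 5 (20.2, 19.7 and 24.0 FPKM) lay below all other libraries, and roxadustat 4 and 6 lay within the PBS range. Its log2 difference for roxadustat against PBS was -0.41 ± 0.15 (limma adjusted p = 0.159). Rgs9 had 93.5 ± 13.3, 95.9 ± 10.5 and 85.9 ± 8.56 FPKM.

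The identity factors were among the steadier genes. Nrl, which sets rod fate, had 782, 1056 and 1224 FPKM (lowest, median, highest) with PBS, 1061, 1117 and 1310 FPKM with DMOG and 1045, 1059 and 1093 FPKM with roxadustat. Nr2e3, which represses cone genes in rods, had 664, 808 and 1015 FPKM, 805, 920 and 1002 FPKM, and 843, 877 and 907 FPKM. Crx had 511, 649 and 758 FPKM, 619, 701 and 819 FPKM, and 625, 664 and 710 FPKM. PBS 1 was the lowest of all 18 libraries for each of the 3 factors, and the roxadustat range lay within the PBS range for all of them.

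Nr2e3 was nominally higher with DMOG than with PBS, by 0.17 ± 0.08 on the log2 scale (limma adjusted p = 0.343), and by 0.11 ± 0.07 without PBS 1 (limma adjusted p = 0.594). The coefficient of variation with roxadustat was 1.79% for Nrl, 3.48% for Nr2e3 and 4.47% for Crx, against 13.8%, 14.3% and 12.4% with PBS. Over the 31 photoreceptor genes averaging 10 FPKM or more, 26 had a smaller coefficient with roxadustat than with PBS, as did 67.7% of all such genes. Without PBS 1 and DMOG 1 the count was 18, against 50.1% of all such genes.

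Outer segment structure rests on the disc rim proteins peripherin 2 (Prph2) and ROM1 and on the axonemal protein RP1. Prph2 had group means of 1246 ± 205, 1272 ± 238 and 1243 ± 116 FPKM, Rom1 1314 ± 179, 1413 ± 212 and 1350 ± 91.7 FPKM, and Rp1 529 ± 67.0, 561 ± 47.8 and 532 ± 65.1 FPKM (SD, n = 6). Each had its highest library in DMOG 1 and its lowest in PBS 1, and none passed an unadjusted p of 0.05 in limma.

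Retinoid handling is served by the disc transporter ABCA4 and the retinol dehydrogenase RDH12. Abca4 had 88.6 ± 13.2, 84.4 ± 20.0 and 78.7 ± 8.61 FPKM and Rdh12 had 172 ± 31.3, 181 ± 20.2 and 198 ± 13.4 FPKM with PBS, DMOG and roxadustat. Differences between these means were smaller than the PBS SD for both genes.

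UNC119 carries the lipid-tagged transducin alpha subunit, and AIPL1 is the chaperone of phosphodiesterase 6. Unc119 had 983 ± 132, 1076 ± 117 and 1016 ± 63.3 FPKM (SD, n = 6) and overlapped between treatments. Aipl1 had 286, 386 and 450 FPKM (lowest, median, highest) with PBS, 308, 342 and 497 FPKM with DMOG and 376, 439 and 486 FPKM with roxadustat. Its log2 difference for roxadustat against DMOG was 0.28 ± 0.12 (limma adjusted p = 0.347). It was 0.38 ± 0.10 without DMOG 1 (limma adjusted p = 0.0688) and 0.38 ± 0.08 without PBS 1 as well, when it was called (limma adjusted p = 0.01).

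Aipl1, Grk1, Rcvrn and Slc24a1 were thus the 4 genes whose 6 roxadustat libraries all exceeded the 5 DMOG libraries left after DMOG 1 was set aside, against 3.08% of all genes tested whose libraries did not overlap. They were also the 4 genes called higher with roxadustat than with DMOG when both DMOG 1 and PBS 1 were left out, where 1.44% of all genes were. The 5 DMOG libraries were chosen after their values were seen.

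The genes differed widely in their spread between libraries. Among the 31 photoreceptor genes averaging 10 FPKM or more, the median ratio of highest to lowest library was 1.70, against 1.34 over the 7451 genes of that level above 0 in every library. Gnat1 (4.83-fold) and Guca1b (5.83-fold) passed 4-fold, as did 1.11% of those genes. Pde6a (2.55-fold), Slc24a1 (2.82-fold), Arr3 (2.29-fold) and Gucy2f (2.06-fold) also passed 2-fold, as did 6.31% of those genes. Cngb3 and Nr2e3 lay at 1.52-fold and 1.53-fold.

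Gnat1 did not follow the rod factor gene Nrl from library to library. Gnat1 over Nrl was 0.820, 1.23 and 1.11 in PBS 1 to 3 and 0.494, 0.427 and 0.506 in PBS 4 to 6. It was 1.02 in DMOG 1 and 0.244 to 0.423 in the other 5 DMOG libraries, and 0.287 to 0.517 in roxadustat 1 to 3 and 0.584 to 0.713 in roxadustat 4 to 6. PBS 1 thus had the lowest summed level of the 34 genes but not a low ratio.

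Markers of the retinal pigment epithelium, the layer that wraps the outer segments, had higher sums in the same PBS, DMOG and roxadustat libraries. Of 11 such markers 10 had a mean of at least 0.5 FPKM (not Best1), and none was at 0 in all libraries. They summed to 261, 325 and 359 FPKM in PBS 1 to 3 and to 100, 133 and 235 FPKM in PBS 4 to 6. The sum was 256 FPKM in DMOG 1 and 77.7 to 225 FPKM in the other DMOG libraries, and it was 188 to 219 FPKM in roxadustat 1 to 3 and 274 to 325 FPKM in roxadustat 4 to 6. Ttr is on this list and also on that of liver markers, of which only Ttr and Trf reached 0.5 FPKM. The liver markers summed to 159, 213 and 233 FPKM in PBS 1 to 3 and to 61.0, 64.5 and 140 FPKM in PBS 4 to 6. How much of the epithelium sum came from Ttr alone was not tested. Müller glia markers summed to 2087 to 2212 FPKM in PBS 1 to 3 and to 1427 to 1673 FPKM in PBS 4 to 6. Markers of progenitors and young neurons ran the other way. Of 27, 24 had a mean of at least 0.5 FPKM (not Atoh7, Olig2 and Foxn4), and none was at 0 in all libraries. They summed to 708 to 789 FPKM in PBS 1 to 3 and 838 to 963 FPKM in PBS 4 to 6, to 799 FPKM in DMOG 1 and 924 to 1064 FPKM in the other DMOG libraries, and to 962 to 1071 FPKM in roxadustat 1 to 3 and 878 to 948 FPKM in roxadustat 4 to 6. Of the 24, Neurog2 and Hes6 were called higher with roxadustat than with PBS, as were 1.69% of all genes. Their log2 differences were 0.57 ± 0.13 and 0.40 ± 0.10 (limma adjusted p = 0.0186 and 0.0289). None of the 24 was called for DMOG against PBS or roxadustat against DMOG. The part of these cells in the spread of Gnat1 and Guca1b was not tested.

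In 6 of 7 pairs the rod gene stood above its cone counterpart in all 18 libraries. FPKM is scaled by transcript length, but the transcripts that were counted are not given. The size of a ratio may thus depend on the annotation. The lowest, median and highest ratio are given over the 18 libraries. The ratio was 65.6, 83.1 and 116 for the arrestins (Sag over Arr3) and 6.49, 11.5 and 28.7 for the transducin alpha subunits (Gnat1 over Gnat2). It was 5.00, 6.97 and 10.6 for the gamma subunits (Gngt1 over Gngt2), 14.7, 17.2 and 19.6 for the catalytic phosphodiesterase subunits (Pde6b over Pde6c) and 4.66, 5.58 and 6.66 for the inhibitory ones (Pde6g over Pde6h). For the channel alpha subunits (Cnga1 over Cnga3) it was 39.4, 54.4 and 68.1. The channel beta subunits were the exception, since Cngb1 was listed at 0.04 to 0.10 of Cngb3.

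The ratios did not move together with treatment. Sag over Arr3 was 65.6 to 84.0 with PBS, 81.4 to 89.9 with DMOG and 73.8 to 116 with roxadustat, so 4 of 6 DMOG and 4 of 6 roxadustat libraries exceeded every PBS library. Pde6b over Pde6c was 14.7 to 17.4 with PBS, 16.9 to 19.6 with DMOG and 16.3 to 19.0 with roxadustat. Gngt1 over Gngt2 went the other way, at 6.56 to 10.6, 5.09 to 10.3 and 5.00 to 8.08. All these ranges overlapped, and no test was made of the ratios.

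The mean log2 level of the 12 rod genes minus that of the 7 cone genes summarises the balance in a library. The 12 include Gnb1, which many cell types also use, and Cngb1, which was listed at 0.30 to 0.76 FPKM. This balance was 3.31 ± 0.18 with PBS, 3.16 ± 0.17 with DMOG and 3.24 ± 0.08 with roxadustat (SD, n = 6). Its ranges were 3.03 to 3.54, 3.01 to 3.50 and 3.14 to 3.37. The differences between groups were smaller than the SD of the PBS libraries. The highest DMOG value, 3.50, was that of DMOG 1.

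**Figure D4:**
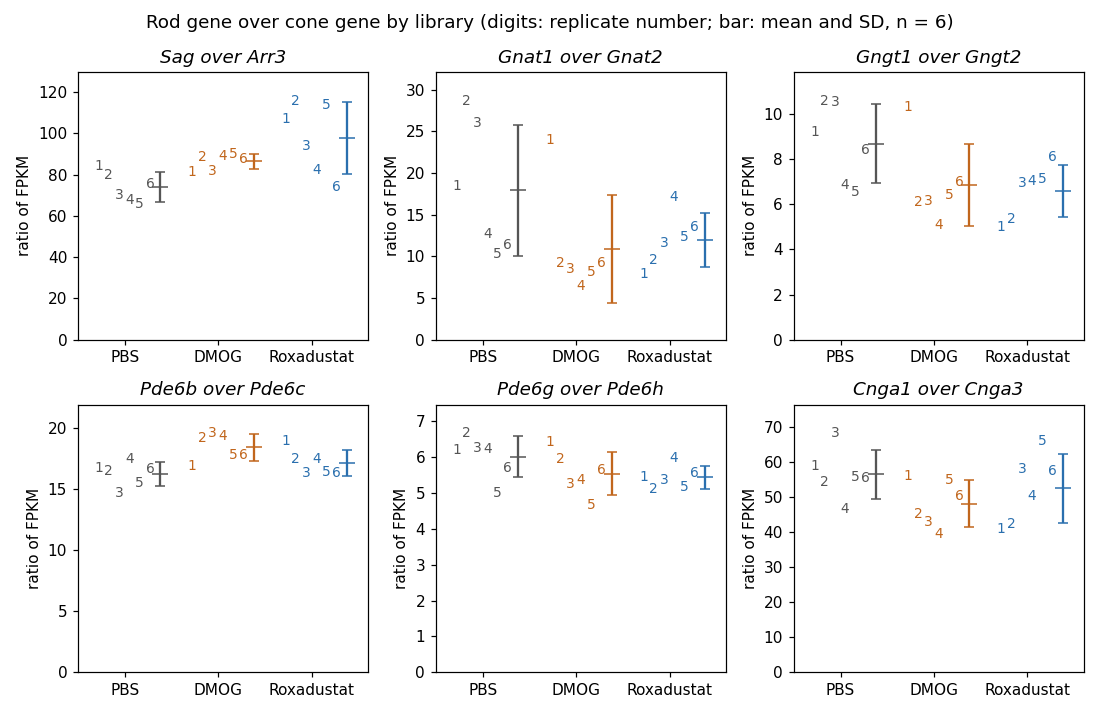
Ratio of the FPKM of a rod gene to that of its cone counterpart in the libraries labelled liver, each digit a library by its replicate number, with the mean and SD of the 6 libraries. Sag over Arr3 runs from 65.6 to 116 and Gnat1 over Gnat2 from 6.49 to 28.7, and the treatments overlap in each panel.

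Further photoreceptor genes were taken from a list chosen by function. Of its 46 genes, all tested, none was called for DMOG against PBS, 2 rose with roxadustat against PBS and 1 was higher with roxadustat than with DMOG. Over all genes 1.69% and 0.98% were called higher in the last 2 comparisons. Thrb, the thyroid hormone receptor gene that specifies middle-wave cones, rose from 19.3 ± 2.41 to 26.8 ± 2.36 FPKM with roxadustat (SD, n = 6), a log2 difference of 0.47 ± 0.07 (limma adjusted p = 0.000826). Opn1sw, the short-wave cone opsin gene, rose from 130 ± 10.5 to 177 ± 18.6 FPKM, by 0.45 ± 0.09 (limma adjusted p = 0.00765). Opn1mw, the middle-wave opsin gene, was not called, with 34.2 ± 12.5 and 32.2 ± 6.94 FPKM. Its difference was -0.04 ± 0.25 (limma adjusted p = 0.962). Median log2 differences of the list were 0.03, -0.02 and -0.06, beside 0.01, -0.00 and -0.01 over all genes.

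The 18 libraries labelled retina, with a liver transcriptome, gave a check of how specific the genes are. Crx, Rcvrn, Arr3, Gucy2f and Cngb1 were listed at 0 in all 18, and 8 genes had a mean of at least 0.5 FPKM. These were Gnb1 (36.2 to 43.5 FPKM), Unc119 (21.7 to 53.6), Gngt2 (10.6 to 28.1), Pde6c (3.95 to 13.5), Guca1a (1.05 to 3.10), Gnat1 (0.92 to 2.44), Rom1 (0.82 to 1.82) and Gnat2 (0.21 to 1.25). So 3 of the 7 cone genes and 2 of the 12 rod genes, Gnb1 and Gnat1, reached that level. Levels are set across tables that may have been scaled apart.

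In these libraries DMOG replicate 5 stood apart, and the fit was chosen after the data were seen. Unc119 had 33.0, 42.6 and 53.6 FPKM (lowest, median, highest) with PBS, 21.7, 26.0 and 43.2 FPKM with DMOG and 26.2, 30.9 and 32.2 FPKM with roxadustat. It fell with DMOG by 0.59 on the log2 scale (SE 0.14, limma adjusted p = 0.0084). For roxadustat against PBS it was not called, at -0.50 ± 0.14 (limma adjusted p = 0.0609), although all 6 roxadustat libraries lay below all 6 PBS libraries, as in 2.73% of all genes. Without DMOG 5, whose Unc119 level was 43.2 FPKM against 21.7 to 33.7 FPKM in the other DMOG libraries, it was called (limma adjusted p = 0.01) and 4.65% of all genes were called lower.

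Rom1 fell with DMOG by 0.40 on the log2 scale (SE 0.11, limma adjusted p = 0.0158), from 1.48 ± 0.26 to 1.00 ± 0.17 FPKM (SD, n = 6). Unc119 and Rom1 were the 2 of 8 genes called for DMOG against PBS, where 20.0% of all genes were called and 11.7% were called lower. None of the 8 was called for roxadustat against PBS (4.19% of all genes) or for roxadustat against DMOG (2.99%). Without DMOG 5, Gnat2 also was called lower with DMOG, at -0.62 ± 0.13 (limma adjusted p = 0.00106), where 18.1% of all genes were called lower. Its level in DMOG 5 was 1.25 FPKM, against 0.205 to 0.359 FPKM in the other DMOG libraries.

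**Figure D5:**
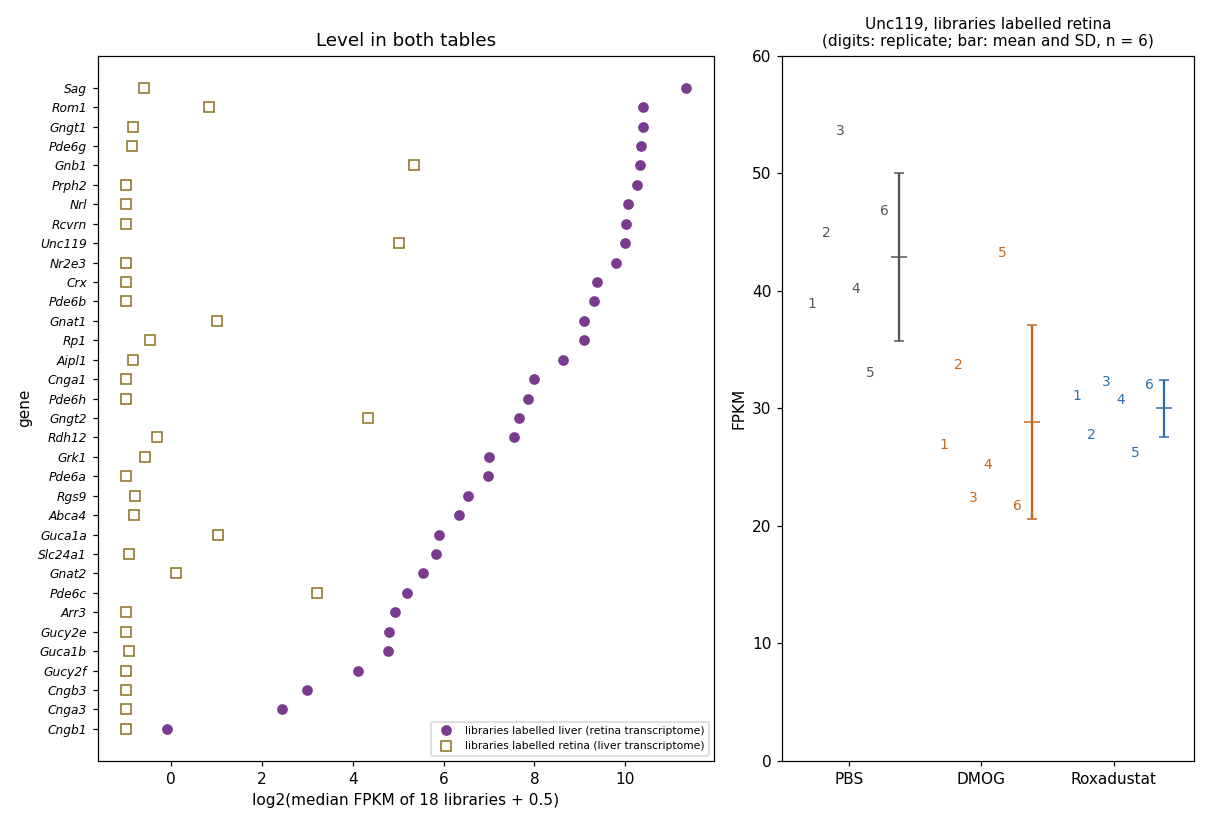
Left, the median of 18 libraries for each gene as log2(FPKM + 0.5), filled circles for the libraries labelled liver (retina transcriptome) and open squares for those labelled retina (liver transcriptome). Right, Unc119 in the libraries labelled retina by replicate number with mean and SD, where PBS lies at 33.0 to 53.6 FPKM and roxadustat at 26.2 to 32.2 FPKM.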

How the data were processed

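Total RNA (RNeasy) was sequenced after ribosomal depletion with a stranded TruSeq kit, per the labels. The deposited values are FPKM per the file headers, 1 table per tissue label. The submitters' processing notes name bcl2fastq 1.8.3, TopHat2, Cuffdiff 2.2.1 and build mm9. Annotation, library scaling and use of strand in counting are not given in the sources used here, so overlapping genes may share fragments. The RefSeq promoters are of another build and were matched by symbol. The values carry no read numbers, so depth is unknown and no counting interval is given. Steps between low values gave a depth relative to PBS 1 for the libraries labelled liver: 0.949 to 1.00 for PBS, 1.07 to 1.46 for DMOG and 0.933 to 1.38 for roxadustat. This estimate was above every PBS library in all DMOG libraries and in all roxadustat libraries except roxadustat 6. That library, at 0.933, lay below every PBS library. The part of depth in the results was not tested. Library totals were 542785 to 617853 FPKM (labelled liver) and 433021 to 540324 FPKM (labelled retina). No 2 libraries were identical. A row of totals was dropped.

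Genes averaging 0.5 FPKM or more over the 18 libraries of a table were fitted as log2(FPKM + 0.5), on which low genes change too little. The fit in limma 3.58.1 (R 4.3.3, statmod 1.5.0) had 3 group means, a mean trend in the empirical Bayes step and 15 residual degrees of freedom. Tests were two-sided, with Benjamini-Hochberg adjustment across the genes of a table at 0.05. The method was tested on simulated data with independent noise for each gene. These held no shift shared by the genes of a library, so that test does not cover the pattern of PBS 1 and DMOG 1. All 34 genes were described, and those with an unadjusted p under 0.05 or a wide spread were given with their statistics. The genes and lists were chosen with earlier results of these data known. Alternatives were pseudocounts, filters, rescaling, other model settings, a replicate block and libraries left out. Figures used Python 3.11.15 and matplotlib 3.10.9.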

Additional observations from a re-analysis of the deposited data

Results flagged for a closer look

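In 23 of 129 groups of 6 checked, 1 library lay further from the rest than Dixon's 95% critical value allows, and chance gives about 1 in 20 (5%). Of the libraries labelled liver, DMOG 1 was the high one for 14 genes. These were Sag (3683 FPKM), Gnat1 (1333 FPKM), Gnb1 (1728 FPKM), Pde6a (191 FPKM), Pde6b (762 FPKM), Slc24a1 (91.5 FPKM), Rcvrn (1395 FPKM), Guca1b (81.8 FPKM), Gucy2f (27.0 FPKM), Rp1 (653 FPKM), Prph2 (1727 FPKM), Abca4 (123 FPKM), Aipl1 (497 FPKM) and Arr3 (45.2 FPKM). The same library gave the rod minus cone value of 3.50. PBS 1 was the low one for Pde6b (466 FPKM), Rp1 (394 FPKM), Rdh12 (112 FPKM), Gnat2 (34.8 FPKM) and Pde6h (173 FPKM). Among the libraries labelled retina, single libraries stood out for Guca1a in roxadustat 3 (3.10 FPKM, high), Rom1 in roxadustat 5 (0.965 FPKM, low) and Gnat2 in DMOG 5 (1.25 FPKM, high). The genes of a library share that library, so these are few independent events.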

How the results depend on the processing

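The log2 differences of single genes of the 34 that the text gives with an SE kept their direction under every alternative run. Directions over all 33 genes tested in the libraries labelled liver were less steady. For DMOG against PBS, 18 of the 33 lay above 0 with all libraries kept. Without PBS 1 there were 12, and without PBS 1 and DMOG 1 there were 6. Genes named from outside the 34 were not compared across alternatives. Of the 33 genes labelled liver, leaving out 1 library gave 0 to 1 calls for DMOG against PBS, 0 to 1 for roxadustat against PBS and 0 to 2 for roxadustat against DMOG. Leaving out PBS 1 and DMOG 1 together, an alternative chosen after seeing the data, as were those on crystallins and all on the label retina, gave 1 and 4 calls for the first and last. The count over all genes was less steady. For DMOG against PBS it was 147, but 94 from the 2 groups alone, 243 with totals equal outside crystallin genes (28 higher, against 51 of 147), 45 without the 4 libraries rich in crystallins and 48 (DMOG 4) to 420 (PBS 4) with 1 library left out. For roxadustat against PBS it was 323, but 190, 776 (176 higher, against 233 of 323) and 211 to 481 under the first, second and last of these. For roxadustat against DMOG it was 181, with 128 to 263 when 1 library was left out and 275 without PBS 1 and DMOG 1.

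Of the 8 genes labelled retina, the 2 calls for DMOG became 1 with a filter of 5 FPKM and 2 to 3 with 1 library left out. For roxadustat against PBS the 0 calls became 1, Unc119, with equal totals, where 520 of all 12657 genes were called lower. With 1 library left out there were 0 to 1. Unc119 was called without DMOG 5 (589 genes lower), or without PBS 5 (281 lower) at limma adjusted p = 0.0355. For roxadustat against DMOG the 0 calls became 1, Rom1, with median ratio scaling, where 284 genes were called higher. With 1 library left out there were again 0 to 1. Rom1 was called without DMOG 5 (1147 genes higher) at limma adjusted p = 0.0254, or without roxadustat 5 (152 higher). Calls over all genes with 1 library left out ran from 1809 to 4489 for DMOG and 344 to 1111 for roxadustat against PBS. For roxadustat against DMOG they ran from 104 to 2052. In the libraries labelled liver, same-numbered libraries did not deviate together (7 of 18 pairs over 0.1). There 4 of 18 libraries correlated best with their own number. The replicate block gave 138, 340 and 175 genes and 0 photoreceptor calls for the label liver. For the label retina it gave 2843, 539 and 396 genes, with Rom1 and Unc119 called for DMOG against PBS. The cause of these shifts was not tested.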
